A study of Mus musculus with 34 samples.

Results

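The comparison describes livers of mice given a guide RNA against Bcl6 (Bcl6 KO, 5 livers) beside livers of mice given a guide against a gene the mouse genome does not carry. These controls were 4 livers with a guide against GFP (sgGFP) and 2 with a guide against LacZ (sgLacZ). Members were the genes that reached 1 FPKM in 5 or more of these 11 libraries, which left 17120 of the 35976 symbols in the table. FPKM count sequenced fragments relative to transcript length and library size. Per the labels, the C57BL/6 mice of all groups, controls included, were homozygous for a Cas9 gene under a tetracycline-responsive promoter (TetO-Cas9) and for the transactivator that drives it, placed at the Rosa locus (Rosa-rtTA), a locus used because it is active in most cell types. An adeno-associated virus (AAV) brought in the guide, and the mice ate a Western diet for 3 months. The promoter of the guide, the share of cells edited, the age and sex of the mice, and whether every library is from its own mouse are details not given in the sources. For libraries of 1 mouse, the p-values below would reflect technical spread alone. The other 23 livers of the series carried guides against Irs1, Smyd2, Srebf1 or Tbx3, on the same diet.

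BCL6 is a zinc finger transcription factor that represses genes by recruiting corepressor complexes, among them NCOR1 and BCOR. It is best known from germinal centre B cells, and in mouse liver it is more abundant in males than in females and binds many of the sites that the growth hormone-activated factor STAT5 also binds. Growth hormone reaches the liver in pulses in male mice and almost continuously in females, and this pattern, read through STAT5, sets much of the sex difference in liver gene expression.

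Bcl6 mRNA (chr16:23965052-23988852, minus strand, GRCm38) gave no difference past the threshold. Its FPKM were 46.7, 60.4, 52, 62.5 and 100.1 in Bcl6 KO livers 1 to 5 and 27.1 to 104 (median 71.9) in the controls (log2 change 0.05 ± 0.47, adjusted p = 0.976). The groups overlapped, and since an edited allele can still be transcribed, a sum over the whole gene does not check the label. All 11 livers carried Y-linked transcripts: Uty, a Y-linked histone demethylase, lay at 515 to 785 FPKM in Bcl6 KO and at 606 to 749 in controls. Xist, the X-inactivation RNA, lay at 0.0211 to 2.26 FPKM over the 11 livers. Of the 8 sex chromosome genes tested, 0 passed the threshold (limma, 1 at an unadjusted p under 0.05). Depth is not given. It was estimated from the steps between low values, with a tolerance of 0.02 reads. Many values do not follow these steps, and many appear to sum over transcripts. The estimate came to 2520000 to 2860000 counted reads for Bcl6 KO and 2300000 to 2660000 for controls. The Pearson correlation of log2(FPKM + 1) between livers was 0.952 to 0.965 within Bcl6 KO, 0.926 to 0.967 within the controls and 0.905 to 0.955 between the groups, with sgGFP 3 the control least like the others. The pair of control guides differed at 2 genes (limma, 1199 at an unadjusted p under 0.05). No hepatocyte marker tested was at 0 in all 11 livers. Since each library is a whole liver sample, fewer cells of a type and less RNA per cell cannot be told apart.

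Of the 17120 genes, 1213 differed between Bcl6 KO and control livers at a limma adjusted p under 0.05 (7.09%). A total of 567 were higher in Bcl6 KO (3.31%) and 646 were lower (3.77%). The 5 Bcl6 KO values lay entirely outside the range of the 6 controls for 809 genes (4.73%). At least 2-fold changes were more often rises, with 292 higher and 197 lower, and at least 8-fold changes numbered 57 higher and 13 lower. A total of 36 tested genes had no control liver at 1 FPKM and 15 no Bcl6 KO liver. Without these 51 genes, which had to differ to be tested, 532 were higher and 637 lower. Genes with some but fewer than 5 livers of 1 group at 1 FPKM also needed the other group's livers to be tested. These were not taken out. The higher share of the calls was 46.7% as deposited, 67.4% when each library was scaled to a common median (690 higher, 334 lower) and 57.4% after quantile normalization (706 higher, 523 lower). Median scaling moved the median change of all genes by 0.10 on the log2 scale. Albumin alone made up 3.34% to 5.13% of the FPKM total with Bcl6 KO and 1.25% to 1.75% in controls. Without Bcl6 KO 4 the calls numbered 780, of which 344 were lower, and without Bcl6 KO 1 the lower calls numbered 411. A fit of these 2 groups alone gave 377 lower calls.

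**Figure D1:**
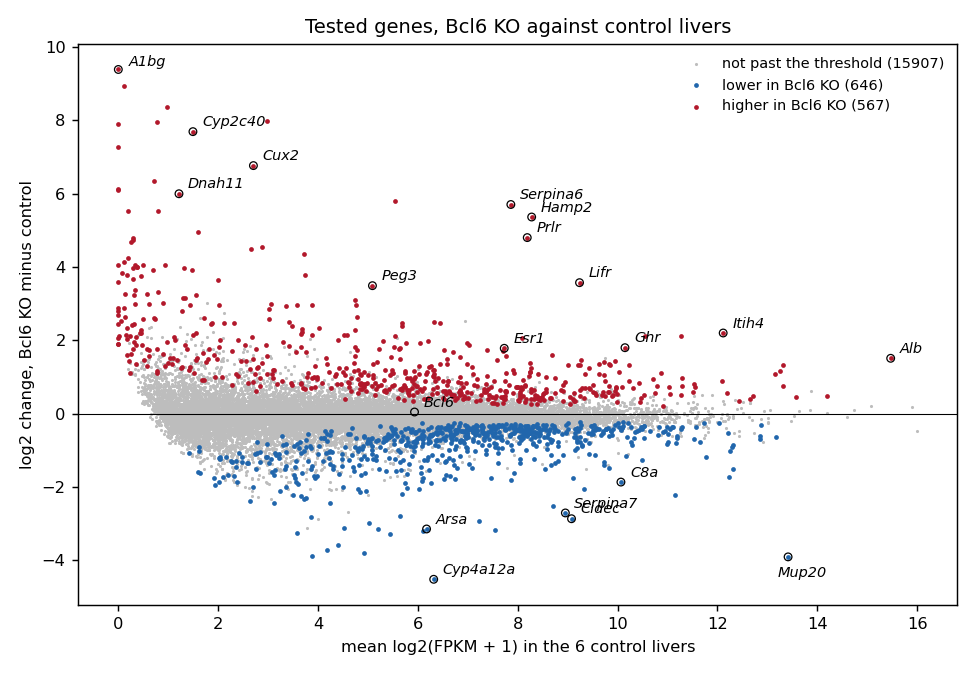
Each point is 1 of the 17120 tested genes. The horizontal axis is the mean log2(FPKM + 1) over the 6 control livers and the vertical axis the log2 change, Bcl6 KO minus control, with red and blue points for the 567 higher and 646 lower genes past the threshold. Serpina6, Hamp2 and Prlr lie among the large rises, Mup20 and Cyp4a12a among the large falls, and Bcl6 itself near 0.

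Receptors of the growth hormone and prolactin axis rose. For this list and those below, the shares to compare with are those over all tested genes, 3.31% higher and 3.77% lower. Of 25 tested genes of growth hormone and STAT5 signalling, 8 were higher and 0 lower (limma, 2 lower at an unadjusted p under 0.05), and 4 were higher without Bcl6 KO 1. The list's median log2 change was 0.01, against -0.08 over all tested genes, so the rises concerned some members and not the list at large. Prlr, the prolactin receptor (chr15:10177238-10349180, plus strand), stood at 10920.4, 7089, 5972, 11929.8 and 6443 FPKM in Bcl6 KO livers 1 to 5 and at 175 to 687 (median 268) in the controls (log2 change 4.80 ± 0.36, adjusted p = 8.47e-12). The lowest Bcl6 KO liver was far above the highest control. Ghr, the growth hormone receptor (chr15:3317760-3583492, minus strand), stood at 4835, 3758, 3125, 5826 and 2891 FPKM against 763 to 1343 (median 1181) (log2 change 1.80 ± 0.18, adjusted p = 7.92e-09). Lifr, the leukaemia inhibitory factor receptor (chr15:7090614-7197489, plus strand), stood at 9934, 6985, 5187, 10137 and 5199 FPKM against 487 to 691 (median 643) (log2 change 3.57 ± 0.20, adjusted p = 2.30e-15). Neither gene's groups overlapped, and in all 3 receptors Bcl6 KO 1 and 4 were the 2 highest livers. Under every alternative tried, these 3 calls held.

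Downstream of the receptors the picture was mixed. Jak2, the kinase attached to both receptors, and Stat5a and Stat5b, its targets, had adjusted p of 0.972, 0.378 and 0.973. Stat5b ranged from 119 to 138 FPKM in Bcl6 KO and from 116 to 155 in controls. Socs2, a STAT5-induced feedback inhibitor of the growth hormone receptor, stood at 559, 369.8, 361, 272 and 190.4 FPKM against 78.9 to 216 (median 137) (log2 change 1.28 ± 0.34, adjusted p = 0.0169). Its groups overlapped through Bcl6 KO 5, and the call ended with sgGFP alone as control and without Bcl6 KO 1 (adjusted p up to 0.0904). Cish, another feedback inhibitor, stood at 32.3, 21.4, 29.5, 22.5 and 13 FPKM against 5.63 to 23.3 (median 13) (log2 change 0.87 ± 0.61, adjusted p = 0.47) and did not pass. Igf1, the main growth hormone-induced growth factor of the liver, stood at 5356, 4273, 5367, 6189.9 and 5795 FPKM against 3776 to 6286 (median 4181) (log2 change 0.26 ± 0.15, adjusted p = 0.369), with overlapping groups. Igfals, which holds IGF1 in circulating complexes, stood at 50.9, 27.6, 57.4, 61.1 and 52.4 against 12.6 to 39.1 (median 22.5) (log2 change 1.13 ± 0.34, adjusted p = 0.0372), but the call ended with no filter on low values, under the replicate block and without Bcl6 KO 1, Bcl6 KO 3, Bcl6 KO 4, Bcl6 KO 5, sgGFP 1, sgGFP 2, sgGFP 3 or sgLacZ 2 (adjusted p up to 0.105). Stat3, a signal transducer of LIFR and other cytokine receptors, was at 533 ± 77.5 against 367 ± 51.6 FPKM (adjusted p = 0.0198), its call ending with sgGFP alone as control and without Bcl6 KO 1, Bcl6 KO 2 or sgLacZ 1 (adjusted p up to 0.102). Trim24, a nuclear receptor cofactor, was at 272 ± 60.1 against 191 ± 32.6 FPKM (adjusted p = 0.0198), its call ending in the fit of the 2 groups alone and without Bcl6 KO 1, Bcl6 KO 2, Bcl6 KO 3 or sgGFP 3 (adjusted p up to 0.12). Zfhx3, a transcription factor of the same list, had a log2 change of 0.04 (adjusted p = 0.903), and Zhx2, Tox and Onecut1 did not pass either.

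**Figure D2:**
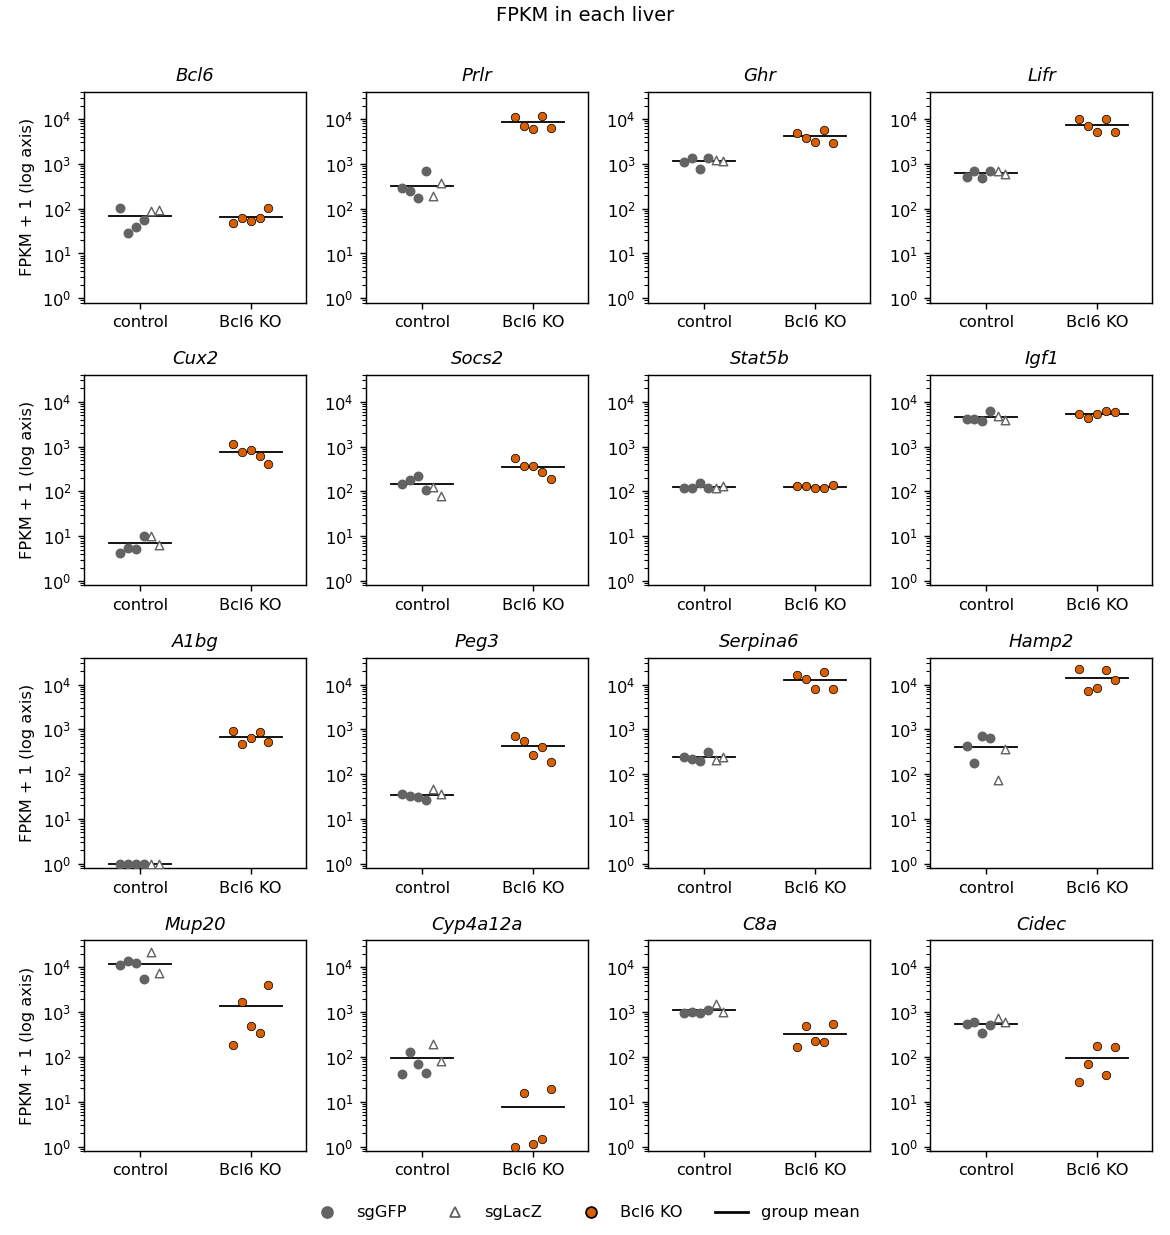
FPKM + 1 on a log axis in each of the 11 livers for 16 genes. Filled circles are sgGFP, open triangles sgLacZ and orange circles Bcl6 KO livers 1 to 5 from left to right, with bars at group means. Prlr, Ghr, Lifr, Cux2, A1bg, Peg3, Serpina6 and Hamp2 lie wholly above the controls, Mup20, Cyp4a12a, C8a and Cidec wholly below, and Bcl6, Stat5b and Igf1 overlap.

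Among the partners of BCL6 in repression, few passed, beside 3.31% higher and 3.77% lower over all tested genes. Of 24 tested genes for BCL6, related zinc finger factors and corepressors, 1 was higher and 2 lower, with a median log2 change of -0.19. Bcor, a subunit of a polycomb-type BCL6 corepressor, stood at 195, 142, 149.5, 123 and 132 FPKM against 80.4 to 111 (median 102) (log2 change 0.57 ± 0.13, adjusted p = 0.00297), without overlap. Ncor1, the nuclear receptor corepressor, stood at 5835, 6294, 6161, 5628 and 6417 against 6429 to 8218 (median 7718) (log2 change -0.32 ± 0.09, adjusted p = 0.0292), without overlap, and Mta3, a subunit of a deacetylase complex, was the other lower gene. Neither lower call was stable. The lower count of this list was 0 without Bcl6 KO 1, sgGFP 1 or sgGFP 3 and 1 without Bcl6 KO 4, Bcl6 KO 5, sgGFP 2 or sgLacZ 1 and 5 without sgLacZ 2, and 0 under median scaling, in the fit of the 2 groups alone and with no filter on low values.

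The letters TTCNNNGAA, the core that STAT5 dimers are known to prefer, were searched in RefSeq promoter windows of the GRCm38.p6 build, from 250 bases before to 50 bases after each annotated start. The word is its own reverse complement, so 1 search reads both strands. It occurred in 8.3% of all 32851 windows. The other shares are per gene, where a gene counts if any of its windows holds the word. By gene it occurred in 9.55% of all 27025 genes with a window. It occurred in 8.43% of the 415 called-higher genes with a window, 7.33% of the 491 called-lower genes and 8.91% of the 11442 genes not called. Called genes held it at shares close to that of the rest. Of the growth hormone and STAT5 list, 4 of 21 genes with a window held it (19%), and of the female-biased genes described below 5 of 29 (17.2%), and of the male-biased genes 2 of 19 (10.5%), shares that rest on few genes. Stretches of 100 bases around the matches are shown for genes the results turn on, 5′ to 3′ on the gene's own strand and with the match in capitals, to show where the letters lie. A match is a description of the letters, not a binding site.
Prlr: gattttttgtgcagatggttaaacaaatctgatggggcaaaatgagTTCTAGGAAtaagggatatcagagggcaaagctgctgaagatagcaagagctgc
A1bg: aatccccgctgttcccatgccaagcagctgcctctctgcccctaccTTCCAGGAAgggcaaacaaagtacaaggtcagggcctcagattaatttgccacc
Slc22a26: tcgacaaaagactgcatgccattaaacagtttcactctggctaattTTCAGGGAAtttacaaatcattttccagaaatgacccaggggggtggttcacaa
Hamp2: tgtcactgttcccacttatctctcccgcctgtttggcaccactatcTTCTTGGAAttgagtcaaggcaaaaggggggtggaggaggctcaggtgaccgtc
Itih4: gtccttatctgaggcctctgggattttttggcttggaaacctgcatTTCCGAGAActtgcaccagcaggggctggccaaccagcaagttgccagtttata
Esr1: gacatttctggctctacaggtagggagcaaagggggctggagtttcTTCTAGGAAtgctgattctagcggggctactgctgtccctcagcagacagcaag
C8a: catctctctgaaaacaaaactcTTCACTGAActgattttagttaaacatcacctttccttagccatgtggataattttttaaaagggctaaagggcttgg
Cish: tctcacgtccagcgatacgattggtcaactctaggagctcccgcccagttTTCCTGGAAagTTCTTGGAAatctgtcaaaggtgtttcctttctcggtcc
Bcl6: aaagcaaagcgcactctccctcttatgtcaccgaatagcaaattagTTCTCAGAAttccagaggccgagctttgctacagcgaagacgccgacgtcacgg
Bcl6: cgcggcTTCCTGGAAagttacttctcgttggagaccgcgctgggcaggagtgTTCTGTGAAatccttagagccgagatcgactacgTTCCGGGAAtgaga

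The stretches lie at chr15:10223750-10223849 for Prlr, chr15:60921301-60921400 for A1bg, chr19:7802755-7802854 for Slc22a26, chr7:30924222-30924321 for Hamp2, chr14:30886379-30886478 for Itih4, chr10:4709924-4710023 for Esr1, chr4:104876549-104876648 for C8a, chr9:107296609-107296708 for Cish and chr16:23988917-23989016 and chr16:23981358-23981457 for the outer and an inner start of Bcl6. The stretches of Slc22a26, Itih4 and C8a and the first of Bcl6 belong to the outermost annotated start of the gene, and the others to RefSeq starts inside the annotated gene. The windows at the first RefSeq starts of Prlr and Esr1 hold no match. Prlr, Itih4, Esr1 and Cish are on the plus strand and the rest on the minus strand. Prlr and Esr1 hold the same letters, TTCTAGGAA, centred 106 and 184 bases before the annotated starts. The Bcl6 windows hold 1 match at the outer start and 3 at the inner one, the Cish window holds 2, while the windows of Cux2 and Lifr, which rose, hold none. Of the genes shown, Prlr, A1bg, Slc22a26, Hamp2, Itih4 and Esr1 rose, C8a fell, and Cish and Bcl6 did not pass.

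Many transcripts typical of female mouse liver rose. Of 36 tested members of the female-biased list, 8 had no control liver at an FPKM of 1, and 7 of these were listed at 0 in all controls. These 8 entered the tests through the Bcl6 KO livers alone, so they had to differ, and no fold or p is given for them. Of the other 28 members, 17 rose and 1 fell, with a median log2 change of 1.94, against -0.08 over the 17069 tested genes with a liver at 1 FPKM in both groups. Some of the 17, among them Cyp2c40, Cyp2c69 and Cyp3a16, had fewer than 5 controls at 1 FPKM. These too were tested only because of the Bcl6 KO livers, so the count of 17 is not free of the filter. Prlr and Cux2 are also counted in the growth hormone and STAT5 list, and Cyp17a1 in the steroid list below. A1bg, a plasma glycoprotein of unsettled function (chr15:60896859-60923012, minus strand), stood at 939.6, 477, 632, 882 and 522 FPKM in Bcl6 KO livers 1 to 5 and was listed at 0 in all 6 controls. Cux2, a homeobox factor that restrains male-biased genes in female liver (chr5:121856366-122050102, minus strand), stood at 1169.7, 742, 835, 607 and 401 FPKM against 3.18 to 9.19 (median 4.89) (log2 change 6.76 ± 0.53, adjusted p = 2.07e-11). Bcl6 KO 5 had the least Cux2 of the 5 and still stood far above every control.

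Female-biased cytochrome P450 genes, which hydroxylate steroids and drugs, were among the largest rises. Cyp2c40 (chr19:39767071-39812814, minus strand) stood at 707, 432, 586, 775 and 470.1 FPKM against 0 to 10.1 (median 2.01) (log2 change 7.69 ± 0.39, adjusted p = 3.23e-16). Cyp2c69 stood at 685, 352, 335, 452 and 345 against 0.224 to 2 (median 0.537) (log2 change 7.94 ± 0.24, adjusted p = 6.86e-23), and Cyp3a16 at 946, 506, 478, 970.3 and 503 against 0.444 to 3.25 (median 0.46) (log2 change 8.36 ± 0.32, adjusted p = 9.81e-20). None of these groups overlapped. Each of these genes had fewer than 5 controls at 1 FPKM and was tested only because of the Bcl6 KO livers, so the folds and p are not free of the filter. Cyp3a41a stood at 55.8, 40.7, 41.6, 70.8 and 54.8 against 0 to 0.387 (median 0.185) FPKM, and its near-identical neighbour Cyp3a41b at 179, 146, 121, 178 and 146 FPKM with every control listed at 0. Counting over whole families, a step chosen after the values were seen, 4 of the 7 Cyp3a genes with a liver at 1 FPKM in both groups and 5 of 13 such Cyp2c genes were higher. Cyp3a11, the main drug-metabolising member, was at 2328 ± 1093 against 3451 ± 569 FPKM (adjusted p = 0.38) and did not pass. Because such families are near-identical, the split of reads within each is uncertain.

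Sulfotransferases of the Sult2a family, which sulfate bile acids and steroid hormones, were measured in the Bcl6 KO livers alone, with 1 exception. Sult2a1 (chr7:13796246-13837409, minus strand) stood at 314, 174, 131, 469 and 219.7 FPKM and Sult2a2 at 90.2, 35.7, 62.3, 123 and 64.1 FPKM in Bcl6 KO livers 1 to 5, and both were listed at 0 in all controls. Sult2a3, Sult2a4 and Sult2a5 were likewise listed at 0 in all controls, and Sult2a8, which controls did express, was at 517 ± 432 against 1130.3 ± 627 FPKM (adjusted p = 0.271). The only female-biased gene to fall was Ntrk2, the receptor for brain-derived neurotrophic factor, at 13.5, 35.6, 41.7, 15 and 65.3 FPKM against 54.2 to 122 (median 101) (log2 change -1.67 ± 0.36, adjusted p = 0.00242). Of the remaining members, 10 did not pass, among them Cyp2b9 at 718 ± 157 against 285 ± 235 FPKM (adjusted p = 0.276), and Sult1e1, the oestrogen sulfotransferase, at 212 ± 87.5 against 104 ± 157 FPKM (adjusted p = 0.136).

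Many transcripts typical of male mouse liver fell. Of 27 tested male-biased genes, 0 were higher (limma, 0 at an unadjusted p under 0.05) and 13 lower, with a median log2 change of -1.61 and 8 lower without Bcl6 KO 4. Mup20, a major urinary protein that serves as a male pheromone (chr4:62050234-62054158, minus strand), stood at 186, 1670.3, 480.3, 339 and 4042 FPKM against 5399 to 22085 (median 11809) (log2 change -3.90 ± 0.51, adjusted p = 1.77e-06). Cyp4a12a, a male-typical arachidonic acid hydroxylase (chr4:115299046-115332815, plus strand), stood at 0, 14.4, 0.144, 0.49 and 18.7 against 40.1 to 193 (median 75) (log2 change -4.51 ± 0.63, adjusted p = 5.78e-06). In both genes the groups did not overlap, and Bcl6 KO 2 and 5 kept the most transcript. Cyp2d9, a testosterone hydroxylase, stood at 6.42, 36.9, 11.4, 6.7 and 138 against 43.7 to 429 (median 194) (log2 change -3.18 ± 0.56, adjusted p = 0.000185), where Bcl6 KO 5 lay within the control range. Nox4, an NADPH oxidase, stood at 82.7, 86.3, 63.8, 69.3 and 113 against 119.6 to 212 (median 175) (adjusted p = 0.000659). Of 17 Mup genes tested, Mup20 and Mup14 were lower and 0 higher, and Mup3 was at 4899 ± 2418 against 9743 ± 6213 FPKM (adjusted p = 0.465). Mup14 passed narrowly (limma, adjusted p = 0.049) with overlapping groups. It stood at 0, 12.2, 1.48, 0 and 54.6 FPKM against 5.03 to 618, with sgLacZ 1 the highest control.

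The livers split differently on the female-biased and male-biased genes. The mean log2(FPKM + 1) of the female-biased list, relative to the controls' mean, was 3.17 to 3.65 across the Bcl6 KO group and -0.51 to 0.61 across the controls, with Bcl6 KO 2 the lowest and Bcl6 KO 5 at 3.26. Without the 8 members that no control had at 1 FPKM, these ranges were 2.61 to 2.91 and -0.65 to 0.79. For the male-biased list the values were -2.54, -1.08, -2.37, -2.30 and -0.10 in Bcl6 KO livers 1 to 5, against -0.76 to 1.18 in the controls. All 5 livers were thus far above the controls for female-biased genes, while Bcl6 KO 5 lay inside the control range for male-biased genes. Over all calls, Bcl6 KO 5 was most often the liver nearest to the control mean for 213 of the 567 higher genes (37.6%) and 260 of the 646 lower genes (40.2%). Bcl6 KO 4 was most often the farthest, for 239 (42.2%) and 269 (41.6%), respectively. Bcl6 KO 5 also had the most Bcl6 mRNA of the 5, and whether its editing differed was not tested.

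**Figure D3:**
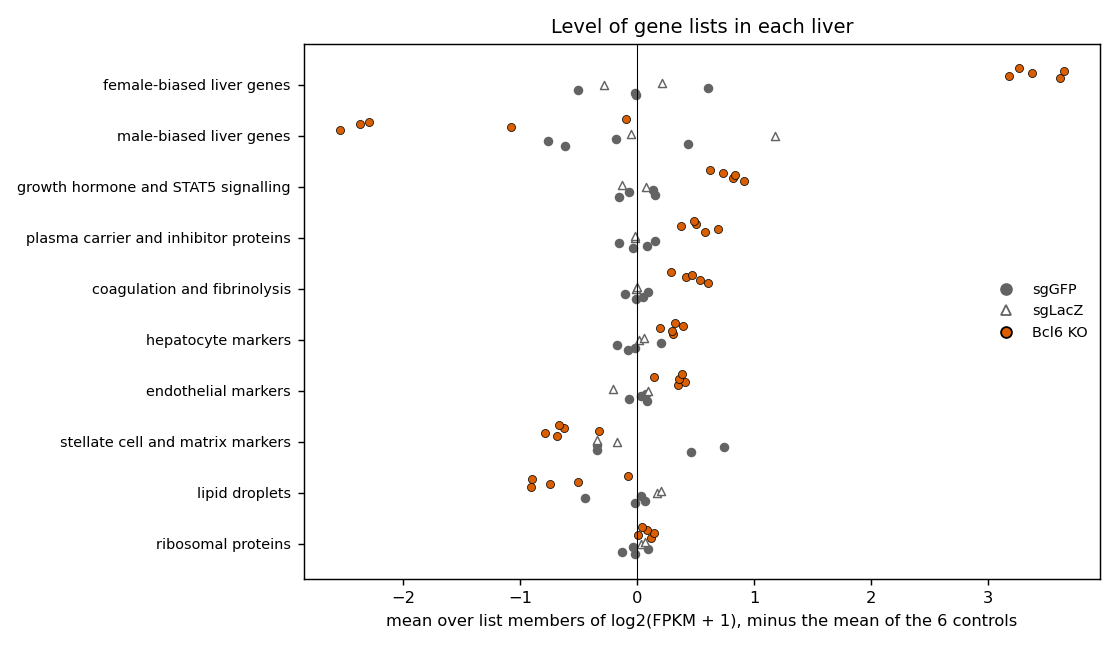
The horizontal axis is the mean log2(FPKM + 1) over the members of a gene list minus the mean of the 6 controls, for 10 lists in each of the 11 livers (filled circles sgGFP, open triangles sgLacZ, orange Bcl6 KO). Female-biased genes separate all Bcl6 KO livers from the controls, male-biased genes leave 1 Bcl6 KO liver inside the control range, and ribosomal protein genes overlap. The female-biased level includes 8 members that no control had at 1 FPKM and that had to differ. Without them the ranges were 2.61 to 2.91 in Bcl6 KO and -0.65 to 0.79 in the controls.

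Several of the largest rises were in genes barely measured in the control livers. Eci3, Dnah11, Cacna1h, Nptx1 and Igdcc4 had fewer than 5 controls at 1 FPKM. They were tested only because of the Bcl6 KO livers, so their folds and p are not free of the filter. Eci3, an enoyl-CoA isomerase, stood at 227, 76.2, 118, 202 and 97.1 FPKM in Bcl6 KO livers 1 to 5 against 0 to 2.68 (median 0.462) (log2 change 6.34 ± 0.44, adjusted p = 9.93e-13). Further genes with large rises were picked after their values were seen, of which Dnajc12 was measured in every control. Dnah11, a motor protein of cilia, was at 156 ± 54.8 against 1.71 ± 1.69 FPKM (adjusted p = 9.93e-13), and Cacna1h, a T-type calcium channel, at 88.4 ± 44.2 against 0.863 ± 0.844 FPKM (adjusted p = 3.36e-12). Nptx1, a neuronal pentraxin, was at 18.9 ± 8.09 against 0.423 ± 0.443 FPKM (adjusted p = 3.94e-13). Dnajc12, a co-chaperone with FPKM of 6.78 to 19.7 (median 12.9) in the controls, was at 299 ± 157 against 12.8 ± 4.52 FPKM (adjusted p = 1.35e-10). In each of these genes all 5 Bcl6 KO livers lay above all 6 controls. Of the imprinted and fetal liver genes, 3 of 14 were higher and 1 lower. Peg3, an imprinted zinc finger factor, stood at 711, 547, 272, 410.2 and 185 FPKM against 24.9 to 46.1 (median 33.1) (log2 change 3.49 ± 0.25, adjusted p = 1.78e-12). Igdcc4, a membrane protein of fetal tissues, stood at 15.3, 119, 69.4, 52.9 and 15.9 against 0 to 8.47 (median 1.48) (log2 change 3.91 ± 0.64, adjusted p = 7.01e-05). Neither overlapped. Afp, the fetal counterpart of albumin, was at 13.5 ± 2.78 against 6.42 ± 3.61 FPKM (adjusted p = 0.0186), its call ending in the fit of the 2 groups alone and without Bcl6 KO 1 or sgGFP 3 (adjusted p up to 0.0876). The lower gene was Peg10, an imprinted gene of retroviral origin, and the lower count of the list was 0 without Bcl6 KO 1, Bcl6 KO 4, sgGFP 1, sgGFP 3 or sgLacZ 1 and 2 without Bcl6 KO 2.

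Among the largest falls outside the sex-biased lists, Arsa, the lysosomal arylsulfatase A (chr15:89472476-89477425, minus strand), stood at 3.45, 19.6, 5.01, 2.04 and 20.9 FPKM against 63.6 to 80.1 (median 71.6) (log2 change -3.14 ± 0.30, adjusted p = 2.82e-09). Smad9, a mediator of bone morphogenetic protein signals, stood at 2.48, 3.21, 1.65, 0.828 and 15.6 against 25 to 50.9 (median 30.0) (log2 change -2.99 ± 0.45, adjusted p = 1.99e-05). The groups were apart in both genes, with Bcl6 KO 5 again nearest to the controls. Adgrg2 and Adgrv1, adhesion G protein-coupled receptors, were at 22.8 ± 15.7 against 151 ± 22.3 FPKM (adjusted p = 0.000217) and 1.83 ± 0.728 against 13.6 ± 5.43 FPKM (adjusted p = 0.000114). Osbpl3, an oxysterol-binding protein, stood at 28.7, 54.6, 221, 43.1 and 134 against 310.1 to 558 (median 419) (log2 change -2.51 ± 0.36, adjusted p = 8.65e-06). Tinag, a basement membrane protein, was listed at 0 in Bcl6 KO livers 1 to 4, was at 2.21 FPKM in Bcl6 KO 5 and lay at 3.36 to 26.1 (median 14.4) in the controls (adjusted p = 0.0184).

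Plasma proteins, the main secreted product of hepatocytes, mostly rose. Of 30 tested plasma carriers and protease inhibitors, 19 were higher and 4 lower, with a median log2 change of 0.56. Serpina6, corticosteroid-binding globulin (chr12:103646630-103657212, minus strand), stood at 15996, 13597, 7949.7, 18748 and 7995 FPKM in Bcl6 KO livers 1 to 5 and at 196 to 314 (median 226) in the controls (log2 change 5.70 ± 0.20, adjusted p = 6.62e-21). Albumin (Alb, chr5:90460897-90476602, plus strand) stood at 155442, 145821, 103330, 150798 and 101951 against 36633 to 51926 (median 48082) (log2 change 1.51 ± 0.14, adjusted p = 1.72e-09). Neither gene's groups overlapped, and the Serpina6 rise was by far the larger of the pair on the log2 scale. Itih4, an acute phase inhibitor heavy chain, stood at 22538, 24668, 17016, 25471 and 14505 against 3473 to 5630.1 (median 4480.1) (log2 change 2.20 ± 0.18, adjusted p = 6.59e-11). The iron and copper carriers transferrin (Trf) and ceruloplasmin (Cp) were at 19329 ± 2157 against 9165 ± 757 FPKM (adjusted p = 1.93e-09) and 25887 ± 4986 against 10188 ± 698 FPKM (adjusted p = 7.27e-10), and fetuin-A (Ahsg) was at 22370.1 ± 4529 against 9866 ± 1739.9 FPKM (adjusted p = 6.58e-07). All of these groups were apart.

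The 4 members that fell were Serpina7, Serpina3k, Mug1 and Mug2. Serpina7, thyroxine-binding globulin, stood at 59.1, 139, 84.6, 29.3 and 115 FPKM against 291 to 626 (median 551) (log2 change -2.71 ± 0.41, adjusted p = 2.56e-05), without overlap. Serpina3k, a serine protease inhibitor, stood at 365, 669, 276, 280.2 and 1415 against 1395 to 4056 (median 2319.7) (log2 change -2.22 ± 0.34, adjusted p = 2.24e-05), and Bcl6 KO 5 overlapped the controls. The murinoglobulins Mug1 and Mug2, broad protease inhibitors, were at 1940 ± 887 against 5108 ± 593 FPKM (adjusted p = 3.22e-06) and 1599.6 ± 454 against 3571 ± 722 FPKM (adjusted p = 2.30e-05). The carriers of the 2 hormone classes thus moved in opposite directions, corticosteroid-binding up and thyroxine-binding down at the mRNA level.

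Hamp2, the second mouse hepcidin gene (chr7:30922372-30924681, minus strand), stood at 21910.1, 7017, 8354, 21111 and 12444 FPKM in Bcl6 KO and 71.5 to 711 (median 393) in controls (log2 change 5.36 ± 0.62, adjusted p = 1.50e-07). Its groups were far apart, while Hamp, which encodes the iron-regulating hepcidin, stood at 2901, 391, 1589, 1955 and 3526 against 552 to 5589 (median 943) (log2 change 0.39 ± 0.60, adjusted p = 0.797). Of 26 tested acute phase genes, 9 were higher and 0 lower (limma, 0 lower at an unadjusted p under 0.05), and the median log2 change was 0.48. The rises included Itih4, Itih3 and haemopexin (Hpx, 8218 ± 1059.9 against 4448 ± 772 FPKM, adjusted p = 0.00499) and Lbp, the lipopolysaccharide-binding protein, at 127 ± 43.9 against 60.7 ± 5.03 FPKM (adjusted p = 0.00121). Cp, Crp, Serpina3n, Serpina3m and Mt1 were the other higher members. Of the higher genes, Itih4, Itih3, Hpx and Cp are also counted among the plasma carriers and protease inhibitors. Saa1 and Saa2, picked after their values were seen, did not pass. Saa1 was at 163 ± 75.6 against 248 ± 66.2 FPKM (adjusted p = 0.628) and Saa2 at 52 ± 21.7 against 105 ± 47.5 FPKM (adjusted p = 0.397).

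Many coagulation genes rose. Of 27 tested, 13 were higher and 0 lower (limma, 1 lower at an unadjusted p under 0.05), with a median log2 change of 0.47. The lower count was 1 without Bcl6 KO 5 or sgGFP 2. F7, coagulation factor VII, stood at 347, 277, 171, 350.3 and 168 FPKM against 45.3 to 78.4 (median 68.5) (log2 change 1.93 ± 0.20, adjusted p = 2.29e-08). F10, factor X, stood at 2314, 2271, 1908, 2990 and 2106 against 785 to 1277 (median 1068) (log2 change 1.14 ± 0.16, adjusted p = 9.81e-06). F5, factor V, and Serpinc1, antithrombin, which inhibits the cascade, were at 1660.2 ± 217 against 999.5 ± 109.8 FPKM (adjusted p = 1.08e-07) and 3477 ± 256 against 2119 ± 321 FPKM (adjusted p = 1.15e-05). The groups were apart in all 4 genes, and procoagulant factors and an inhibitor both rose.

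Complement genes went both ways. Of 28 tested, 7 were higher and 6 lower, with a median log2 change of 0.18. Components of the membrane attack complex were among both. C8a stood at 165, 498, 222, 218 and 548 FPKM against 943 to 1485 (median 996) (log2 change -1.86 ± 0.24, adjusted p = 1.01e-06), C9 at 74.6, 222, 207, 102 and 312 against 449 to 675 (median 552) (log2 change -1.76 ± 0.22, adjusted p = 1.16e-06), and C8b at 60.8 ± 40.3 against 181 ± 41.9 FPKM (adjusted p = 0.000787). Hc, whose product C5 starts the assembly of the complex, was higher at 1316 ± 134 against 951 ± 125 FPKM (adjusted p = 0.0229), and C6 was lower at 138 ± 48 against 409 ± 221 FPKM (adjusted p = 0.00434). C6, C8a and C8b also belong to the male-biased list. Mbl1, a mannose-binding lectin, fell, at 345 ± 38.1 against 625 ± 94.2 FPKM (adjusted p = 4.62e-05), while its relative Mbl2 rose, at 769 ± 121 against 387 ± 81.3 FPKM (adjusted p = 0.000106). C3, the central component, was at 17203 ± 1611 against 10323 ± 1328 FPKM (adjusted p = 0.00032), a call that ended under quantile normalization (adjusted p up to 0.635), and Cfi, the protease that inactivates it, was at 2228 ± 354 against 1195 ± 103 FPKM (adjusted p = 3.77e-06).

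**Figure D4:**
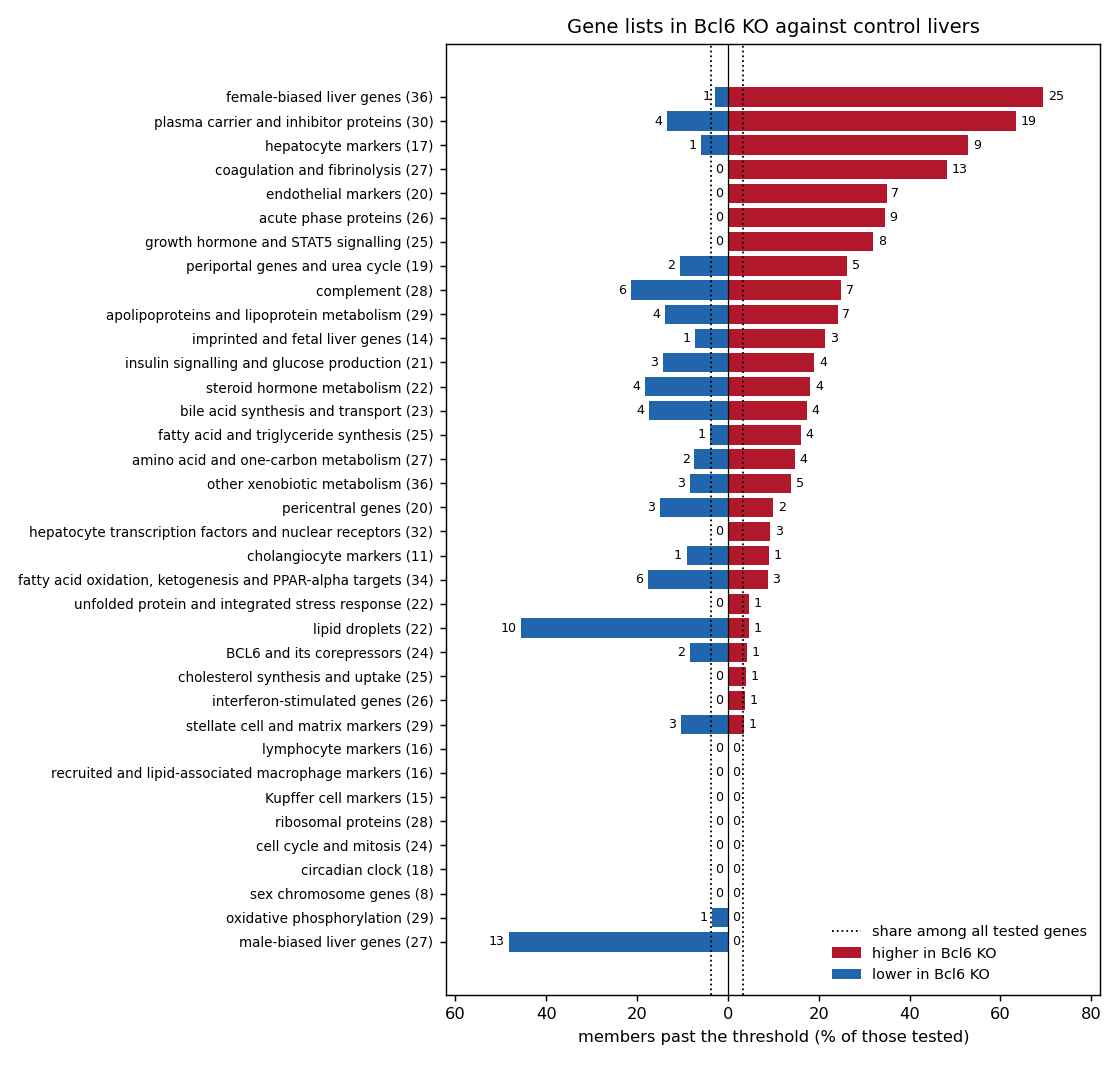
For each of 36 gene lists, with the number of tested members in brackets, bars give the percent of tested members past the threshold, higher to the right (red) and lower to the left (blue), and figures at the bars give the counts. Dotted lines mark the shares over all tested genes, 3.31% and 3.77%. Female-biased (8 of whose 25 higher genes had no control liver at 1 FPKM), plasma carrier and coagulation lists lie far to the right, male-biased and lipid droplet lists far to the left.

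Several lipid droplet genes fell. Of 22 tested, 10 were lower and 1 higher, with a median log2 change of -0.48. The lower count was 4 without Bcl6 KO 4 and 5 without Bcl6 KO 1. It was 5 under median scaling, 5 with sgGFP alone as control and 6 in the fit of the 2 groups alone. Cidec, which fuses droplets (chr6:113424634-113435760, minus strand), stood at 27, 68.9, 175, 38.7 and 164 FPKM against 338 to 745 (median 561) (log2 change -2.86 ± 0.43, adjusted p = 1.88e-05). The groups did not overlap. Its relative Cidea stood at 0, 0.988, 0, 0 and 23.4 against 4.43 to 67.8 (median 36.3) (log2 change -3.81 ± 0.83, adjusted p = 0.00264), with Bcl6 KO 5 alone inside the control range. Plin2, the main droplet coat protein of hepatocytes, stood at 1252, 1602, 1472, 1175 and 1648 against 1704 to 2482 (median 2097) (log2 change -0.55 ± 0.15, adjusted p = 0.0188), a call that ended without Bcl6 KO 1 or Bcl6 KO 4 (adjusted p up to 0.0783). The exception, Pnpla3, a droplet-bound lipase, stood at 263, 297, 89.8, 569 and 352 against 21.7 to 105 (median 55.7) (log2 change 2.39 ± 0.60, adjusted p = 0.0099), overlapping through Bcl6 KO 3.

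For fatty acid and triglyceride synthesis, the share of higher genes lay above the 3.31% over all tested genes. The share of lower genes was close to the 3.77% over all tested genes. Of 25 tested, 4 were higher and 1 lower, with a median log2 change of -0.39. Fads1 and Fads2, the desaturases that make long polyunsaturated fatty acids, and Elovl2, the elongase acting with them, rose. Fads1 stood at 2875, 2622, 1989.6, 3582 and 2547 FPKM against 886 to 1109.8 (median 959) (log2 change 1.45 ± 0.15, adjusted p = 6.85e-09), and Fads2 and Elovl2 were at 2518 ± 658 against 1375 ± 127 FPKM (adjusted p = 0.000611) and 960.2 ± 114 against 611 ± 76.9 FPKM (adjusted p = 0.01), all without overlap. Fasn, which makes saturated fatty acids, and Scd1, which desaturates them, had log2 changes of -0.60 (adjusted p = 0.3) and -0.47 (adjusted p = 0.127). Acacb, an acetyl-CoA carboxylase, was at 1077 ± 107 against 674 ± 176 FPKM (adjusted p = 0.038), a call that ended with no filter on low values, with no intensity trend, under the replicate block and without Bcl6 KO 1, Bcl6 KO 2, Bcl6 KO 4, Bcl6 KO 5, sgGFP 1, sgGFP 3 or sgGFP 4 (adjusted p up to 0.111). The lower gene was Aacs, acetoacetyl-CoA synthetase, at 39 ± 17.3 against 96.6 ± 28.7 FPKM (adjusted p = 0.00106). The lower count was 2 without sgGFP 4 or sgLacZ 1 and 3 without Bcl6 KO 5 or sgGFP 3. Of 25 cholesterol genes, 1 was higher and 0 lower (limma, 3 lower at an unadjusted p under 0.05), with 1 lower without Bcl6 KO 5. Mvd, mevalonate diphosphate decarboxylase, stood at 45.6, 39.4, 16.8, 54.3 and 41.5 against 5.22 to 30.8 (median 10.5) (log2 change 1.68 ± 0.38, adjusted p = 0.00364).

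BCL6 is known in mouse liver as a repressor of PPAR-alpha target genes for fatty acid oxidation, so these were examined as a list. Of 34 tested, 3 were higher and 6 lower, with a median log2 change of -0.17. Acot3, a peroxisomal thioesterase that the female-biased list also holds, stood at 265, 137, 419.7, 234 and 174 FPKM against 5.56 to 81.1 (median 26.9) (log2 change 3.10 ± 0.60, adjusted p = 0.000629), and Cyp4a31, a fatty acid hydroxylase, at 60.6, 135, 96.9, 91.3 and 86.6 against 7.91 to 46.5 (median 30.8) (log2 change 1.74 ± 0.37, adjusted p = 0.00188). Acot4 was at 124 ± 37.2 against 55.2 ± 16.7 FPKM (adjusted p = 0.0474), a call that ended with a pseudocount of 0.1, with no filter on low values, with the filter set over 34 columns, with sgGFP alone as control, with no intensity trend, under the replicate block and without Bcl6 KO 1, Bcl6 KO 3, Bcl6 KO 4, Bcl6 KO 5, sgGFP 1, sgGFP 2, sgGFP 3, sgLacZ 1 or sgLacZ 2 (adjusted p up to 0.122). On the other side, Pex11a, a peroxisome proliferation factor, stood at 349, 574, 804, 467 and 1024 against 1051 to 1979 (median 1399.99) (log2 change -1.26 ± 0.27, adjusted p = 0.00187) without overlap, and the peroxisomal thiolase Acaa1b and carnitine transferase Crot were at 2788 ± 1031 against 5066 ± 836 FPKM (adjusted p = 0.00124) and 1237 ± 271 against 2126 ± 529.6 FPKM (adjusted p = 0.00357). Under median scaling the lower count was 3. Ppara itself was at 2202 ± 411 against 2239.5 ± 454 FPKM (adjusted p = 0.973), and the PPAR-alpha targets Cyp4a10, Cyp4a14 and Pdk4, picked after their values were seen, had log2 changes of 1.12 ± 0.39, adjusted p = 0.0839, 0.44 ± 0.53, adjusted p = 0.72 and 0.17 ± 0.39, adjusted p = 0.871. Cd36, a fatty acid receptor, and Abcd2, a peroxisomal fatty acid transporter, also picked so, were at 4178 ± 727 against 2968 ± 381 FPKM (adjusted p = 0.102) and 90.4 ± 15.4 against 46.5 ± 11.4 FPKM (adjusted p = 0.132), above all controls in every Bcl6 KO liver but not past the threshold. Against the other knockout groups their adjusted p were 1.02e-06 and 5.81e-05.

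Of 29 lipoprotein genes, 7 were higher and 4 lower, with a median log2 change of 0.20. Apom, a carrier of sphingosine 1-phosphate, stood at 249, 239, 165, 259.8 and 207 FPKM against 68.4 to 107 (median 88.1) (log2 change 1.35 ± 0.21, adjusted p = 4.87e-05), and Lcat, which esterifies cholesterol in plasma, was at 279.7 ± 40.2 against 146 ± 32.1 FPKM (adjusted p = 1.62e-06). The lipases Lipg and Lipc fell, at 27.4 ± 11.7 against 99.5 ± 39.7 FPKM (adjusted p = 5.81e-05) and 295 ± 84.3 against 572 ± 75.5 FPKM (adjusted p = 6.82e-05). Leaving out single livers, the lower count was 2 without Bcl6 KO 4. Of 23 bile acid genes, 4 were higher and 4 lower, with a median of -0.16. Akr1d1, the steroid 5-beta-reductase, stood at 2268, 1709, 2084, 3278 and 2293 against 563 to 1390.5 (median 827) (log2 change 1.42 ± 0.24, adjusted p = 0.000104), and Cyp2c70, which makes the muricholic acids of mice, was at 1566 ± 367 against 638 ± 231 FPKM (adjusted p = 0.000114). Abcb4, the canalicular phospholipid exporter, fell, at 1341 ± 286 against 2306 ± 246 FPKM (adjusted p = 3.75e-06). The basolateral exporters moved apart, with Abcc4 at 80.3 ± 16.9 against 26.4 ± 5.72 FPKM (adjusted p = 0.000443) and Abcc3 at 346 ± 140.4 against 858 ± 104 FPKM (adjusted p = 5.02e-06). The lower bile acid count was 2 without Bcl6 KO 4 and 7 without sgGFP 3, and 2 under median scaling or in the fit of the 2 groups alone. Cyp7a1, the rate-limiting enzyme of the pathway, was at 683 ± 287 against 420.2 ± 337 FPKM (adjusted p = 0.246).

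Genes of steroid hormone metabolism changed in both directions. Of 22 tested, 4 were higher and 4 lower, with a median log2 change of -0.02. The lower genes were Cyp2d9, described with the male-biased genes, Srd5a1, Hsd3b7 and Cyp21a1. Hsd3b7 had a mean of 648 FPKM in Bcl6 KO and 942 in controls. Akr1d1, which was higher, and Hsd3b7 are also counted in the bile acid list. Hsd11b1, which regenerates active glucocorticoid (chr1:193221634-193264075, minus strand), stood at 6763, 6640.3, 6029, 8589 and 5342 FPKM against 969.8 to 2013 (median 1718) (log2 change 2.13 ± 0.28, adjusted p = 1.77e-06). Cyp17a1, the 17-alpha-hydroxylase, stood at 473, 396, 529, 546 and 463 against 48.9 to 134 (median 86.2) (log2 change 2.47 ± 0.34, adjusted p = 5.55e-06). Both were clear of the controls in every Bcl6 KO liver. Hsd17b6, a hydroxysteroid dehydrogenase, was at 591 ± 208 against 186 ± 101 FPKM (adjusted p = 0.000728). The lower steroid count was 2 without Bcl6 KO 4, 2 under median scaling and 1 in the fit of the 2 groups alone. Esr1, oestrogen receptor alpha, stood at 816, 505, 735, 884 and 767 against 135 to 423 (median 187) (log2 change 1.78 ± 0.25, adjusted p = 6.98e-06), without overlap. It was 1 of 3 higher genes among 32 hepatocyte transcription factors, with 0 lower (limma, 5 lower at an unadjusted p under 0.05). The lower count was 1 without Bcl6 KO 2, Bcl6 KO 5 or sgLacZ 2 and 3 without sgGFP 3. The others were Hnf4a, a master regulator of hepatocytes, at 1904 ± 196 against 1418 ± 129 FPKM (adjusted p = 0.000319), and Onecut2 at 144 ± 16.6 against 101 ± 7.16 FPKM (adjusted p = 0.00084).

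In intermediary metabolism the counts were small, but the shares of each list lay above the 3.31% higher and 3.77% lower over all tested genes. Many of these counts moved when 1 liver was left out. Of 19 periportal and urea cycle genes, 5 were higher and 2 lower, with a median of 0.36. Aldh1b1, a mitochondrial aldehyde dehydrogenase, stood at 161, 137, 165, 165 and 132 FPKM against 45.6 to 103 (median 78.4) (log2 change 1.08 ± 0.22, adjusted p = 0.00123). The lower genes were Sox9, a ductal transcription factor, and Cdh1, E-cadherin, and the lower count was 0 without Bcl6 KO 1, Bcl6 KO 4, sgGFP 1 or sgGFP 3 and 1 without Bcl6 KO 2 or Bcl6 KO 5. Of 20 pericentral genes, 2 were higher and 3 lower, with a median of -0.30, and Slc1a2, a glutamate transporter, stood at 1431, 1571, 1292, 1929 and 1313 against 250 to 913 (median 702) (log2 change 1.33 ± 0.28, adjusted p = 0.00216). The higher pericentral count was 1 without Bcl6 KO 1, Bcl6 KO 2, Bcl6 KO 4, Bcl6 KO 5, sgGFP 1, sgGFP 3 or sgLacZ 1, and the lower count 1 without Bcl6 KO 1, Bcl6 KO 3, Bcl6 KO 4, sgGFP 1, sgGFP 2, sgGFP 4 or sgLacZ 2. Of 21 insulin and glucose genes, 4 were higher and 3 lower. Igfbp2, an IGF-binding protein, was at 347 ± 153 against 132 ± 44.1 FPKM (adjusted p = 0.00146), and Pcx, pyruvate carboxylase, at 679.8 ± 95.6 against 944 ± 92 FPKM (adjusted p = 0.00539), the latter call ending under median scaling (adjusted p up to 0.113). The higher count was 1 without Bcl6 KO 4, 1 in the fit of the 2 groups alone and 2 with sgGFP alone as control, and the lower count was 0 under median scaling. Of 27 amino acid and one-carbon genes, 4 were higher and 2 lower, with Gpt2, an alanine transaminase, at 607 ± 139 against 909.5 ± 84.6 FPKM (adjusted p = 0.00152). The higher count was 2 without Bcl6 KO 4, and the lower count 1 without Bcl6 KO 1, Bcl6 KO 4, sgGFP 1, sgGFP 4, sgLacZ 1 or sgLacZ 2.

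Of 36 other xenobiotic genes, 5 were higher and 3 lower, with a median of 0.12. Ces1c, a secreted carboxylesterase, stood at 2854, 2397, 1892, 2627 and 2108 FPKM against 741 to 1139 (median 914) (log2 change 1.36 ± 0.13, adjusted p = 4.02e-09). Of the lower genes, Cyp2f2, a P450 of airway and liver, stood at 136, 141, 120.1, 133 and 289.6 against 229 to 595 (median 472) (log2 change -1.39 ± 0.21, adjusted p = 1.51e-05), overlapping through Bcl6 KO 5. Outside this list, the carboxylesterase Ces3a (chr8:105048601-105058413, plus strand) stood at 1330.2, 1631, 925, 1049.7 and 3015 against 3572 to 6874 (median 4953) (log2 change -1.72 ± 0.21, adjusted p = 3.20e-07). The 2 carboxylesterases moved in opposite directions with no overlap in either. The higher xenobiotic count was 2 without Bcl6 KO 4 or sgGFP 3 and 3 without Bcl6 KO 1, Bcl6 KO 5 or sgGFP 1, and the lower count 1 without Bcl6 KO 1, Bcl6 KO 2 or Bcl6 KO 4. Upp2, a uridine phosphorylase picked after its values were seen, stood at 13862, 10689, 8686, 15461 and 7416 against 1916 to 3259.8 (median 2472) (log2 change 2.13 ± 0.26, adjusted p = 3.18e-07).

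Markers of several cell types passed, beside 3.31% higher and 3.77% lower over all tested genes. Of 17 hepatocyte markers, 9 were higher and 1 lower, and their summed level was 185144 to 244726 FPKM in Bcl6 KO and 101195 to 128430 in controls. Albumin gave 101951 to 155442 and 36633 to 51926 of these. Among the higher markers, Alb, Ahsg and Serpina1a are also counted in the plasma list, Alb and Cps1 in the periportal list and Hnf4a among the hepatocyte transcription factors. The lower marker was Tdo2, tryptophan dioxygenase, and the lower count was 0 without Bcl6 KO 1, sgGFP 1, sgGFP 4, sgLacZ 1 or sgLacZ 2. Of 20 endothelial markers, 7 were higher and 0 lower (limma, 0 lower at an unadjusted p under 0.05), with a median log2 change of 0.37, and their sum was 1476 to 1715 FPKM in Bcl6 KO and 1154 to 1445 in controls. Dnase1l3, a secreted nuclease of liver endothelium, stood at 128, 142, 136, 107 and 141 FPKM against 54.9 to 99.7 (median 65.1) (log2 change 0.88 ± 0.18, adjusted p = 0.00129), and Clec4g, a sinusoidal lectin, at 115, 119.9, 108, 77.5 and 115 against 45.1 to 76.1 (median 63) (log2 change 0.81 ± 0.20, adjusted p = 0.00826). The endothelial count was 4 without Bcl6 KO 3 or sgLacZ 2, and 3 in the fit of the 2 groups alone or with sgGFP alone as control. Of 29 stellate cell and matrix markers, 1 was higher and 3 lower, with a median of -0.70 and sums of 2530.5 to 3497 FPKM in Bcl6 KO and 2698 to 5374 in controls. Loxl2, a collagen cross-linking enzyme, stood at 26.4, 32.9, 44.9, 40.6 and 31.3 against 47.6 to 131 (median 69.7) (log2 change -1.13 ± 0.30, adjusted p = 0.0139), its call ending without Bcl6 KO 1 (adjusted p up to 0.0503). Col1a1 and Col3a1, the fibrillar collagens, were at 12.2 ± 6.79 against 37.5 ± 22.9 FPKM (adjusted p = 0.0801) and 35.2 ± 13.4 against 96.4 ± 53.2 FPKM (adjusted p = 0.0617). The lower stellate count was 1 without Bcl6 KO 1 or Bcl6 KO 4 and 6 without Bcl6 KO 3 or sgGFP 4, and the higher count 0 without Bcl6 KO 1, Bcl6 KO 3, Bcl6 KO 4, sgGFP 1, sgGFP 2 or sgGFP 3. Under the replicate block 8 were lower.

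Kupffer cell, recruited macrophage and lymphocyte markers gave 0 calls among 15, 16 and 16 tested genes (limma, 2, 3 and 1 at an unadjusted p under 0.05). The higher counts were 1 without sgGFP 2 and 2 without Bcl6 KO 5 for Kupffer cells, and 1 without sgLacZ 1 for lymphocytes. Their sums were 1139 to 2672 FPKM in Bcl6 KO and 1163 to 2199.6 in controls for Kupffer cells, 871 to 1932 FPKM in Bcl6 KO and 956 to 4039.9 in controls for recruited macrophages and 74 to 175 FPKM in Bcl6 KO and 53.3 to 138 in controls for lymphocytes, all overlapping, with median log2 changes of 0.29, -0.48 and 0.08, and no marker was at 0 in all 11 livers. The 11 cholangiocyte markers had a median log2 change of -0.97, with 10 negative, of which 6 were lower at an unadjusted p under 0.05, and sums of 823 to 1848 FPKM in Bcl6 KO and 817 to 3644 in controls. Prom1, a stem and progenitor cell surface protein, was higher at 413, 352, 639, 729.5 and 263 FPKM against 34.2 to 369 (median 68.2) (log2 change 2.49 ± 0.56, adjusted p = 0.00387), and Sox9 was lower at 9.52 ± 3.16 against 28 ± 20.6 FPKM (adjusted p = 0.0188). The Sox9 call ended in the fit of the 2 groups alone and without Bcl6 KO 1, Bcl6 KO 4, sgGFP 1 or sgGFP 3 (adjusted p up to 0.0794). The lower cholangiocyte count was 0 without Bcl6 KO 1, Bcl6 KO 4, sgGFP 1 or sgGFP 3 and 2 without Bcl6 KO 3, sgGFP 4, sgLacZ 1 or sgLacZ 2. The part of cell composition in the plasma protein and lipid results was not tested.

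Other lists gave few calls or none, beside 3.31% higher and 3.77% lower over all tested genes. The circadian clock, cell cycle and ribosomal protein lists gave 0 calls among 18, 24 and 28 genes (limma, 2, 1 and 6 at an unadjusted p under 0.05). The ribosomal count was 1 without Bcl6 KO 2, sgGFP 4 or sgLacZ 1, all higher, and 4 under median scaling. Ribosomal protein genes had a median log2 change of 0.06, and Mki67, a marker of dividing cells, stood at 62.9, 69.2, 68.6, 62.2 and 150.02 FPKM against 44.7 to 149 (median 88) (log2 change -0.16 ± 0.44, adjusted p = 0.899). Unfolded protein, interferon and oxidative phosphorylation lists gave 1 call each among 22, 26 and 29 genes. Edem1, which extracts misfolded glycoproteins, was at 476 ± 63.9 against 352 ± 39 FPKM (adjusted p = 0.00289), Gbp7, an interferon-induced GTPase, at 80.0 ± 6.02 against 56.6 ± 12.3 FPKM (adjusted p = 0.0255), and Cycs, cytochrome c, at 19.2 ± 4.06 against 30.6 ± 10.8 FPKM (adjusted p = 0.0459). The Gbp7 call ended in the fit of the 2 groups alone, with sgGFP alone as control and without Bcl6 KO 1, sgLacZ 1 or sgLacZ 2 (adjusted p up to 0.199). The interferon count was 0 without Bcl6 KO 1, sgLacZ 1 or sgLacZ 2. The oxidative phosphorylation count was 0 without Bcl6 KO 1, Bcl6 KO 2, Bcl6 KO 3, Bcl6 KO 4, sgGFP 2, sgGFP 4, sgLacZ 1 or sgLacZ 2 and 2 without Bcl6 KO 5 or sgGFP 3, and 0 under median scaling and quantile normalization.

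Bcl6 KO was also compared in the same fit with the mean of the Irs1, Smyd2, Srebf1 and Tbx3 knockout groups, a contrast that uses no control liver but the same 5 Bcl6 KO livers. It gave 2236 calls (13.1%), 1030 higher and 1206 lower. Prlr had mean FPKM of 371, 308, 421 and 345 in those groups (log2 change 4.60 ± 0.29, adjusted p = 7.09e-14). A1bg reached at most 0.2 FPKM in any of the 23 other knockout livers, Cux2 at most 14.8 and Serpina6 at most 342. Cux2 and Serpina6 passed in this contrast too. A1bg entered the tests through the Bcl6 KO livers alone, so it had to differ here as well and its pass adds nothing. Hamp2 also passed (log2 change 4.64 ± 0.51, adjusted p = 2.51e-08), but the Tbx3 knockout livers averaged 4161 FPKM with a highest value of 8121, within the Bcl6 KO range. Socs2 passed (log2 change 2.16 ± 0.28, adjusted p = 8.54e-07), and C8a and Fads1 passed as well (log2 change -2.42 ± 0.19, adjusted p = 2.07e-11 and log2 change 1.79 ± 0.12, adjusted p = 1.66e-13). Cidec was at 61.7 FPKM in Irs1 and 181 in Tbx3 knockout livers, and its difference from the 4 groups passed (log2 change -1.30 ± 0.35, adjusted p = 0.0107). Osbpl3, Adgrg2 and Adgrv1 passed too (limma, adjusted p = 0.0036, 0.035 and 0.0077), but were also low in other knockouts. Osbpl3 averaged 46.6 FPKM in Irs1 against 96.3 in Bcl6 KO livers, and Adgrg2 11.4 in Tbx3 against 22.8. Adgrv1 averaged 3.15 in Irs1 and 3.40 in Tbx3 against 1.83 in Bcl6 KO livers.

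Other changes against the controls did not pass when Bcl6 KO was set against the other knockouts. Plin2 (log2 change -0.24 ± 0.12, adjusted p = 0.217), Serpina7 (log2 change -0.89 ± 0.34, adjusted p = 0.0787) and Aplp2 (log2 change -0.25 ± 0.12, adjusted p = 0.169) did not pass. The same held for Hnf4a (log2 change 0.11 ± 0.06, adjusted p = 0.274), Hsd17b6 (log2 change 0.04 ± 0.28, adjusted p = 0.948), Cps1 (log2 change -0.01 ± 0.14, adjusted p = 0.983) and Igfbp2 (log2 change 0.12 ± 0.23, adjusted p = 0.805). For the matrix genes Loxl2, Lrat and Col4a1 the adjusted p were 0.462, 0.394 and 0.905. Tinag gave log2 change -0.92 ± 0.71, adjusted p = 0.466, with group means from 0.703 FPKM in Irs1 to 9.2 FPKM in Smyd2 knockout livers. A p that misses the threshold does not show that these levels were equal.

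**Figure D5:**
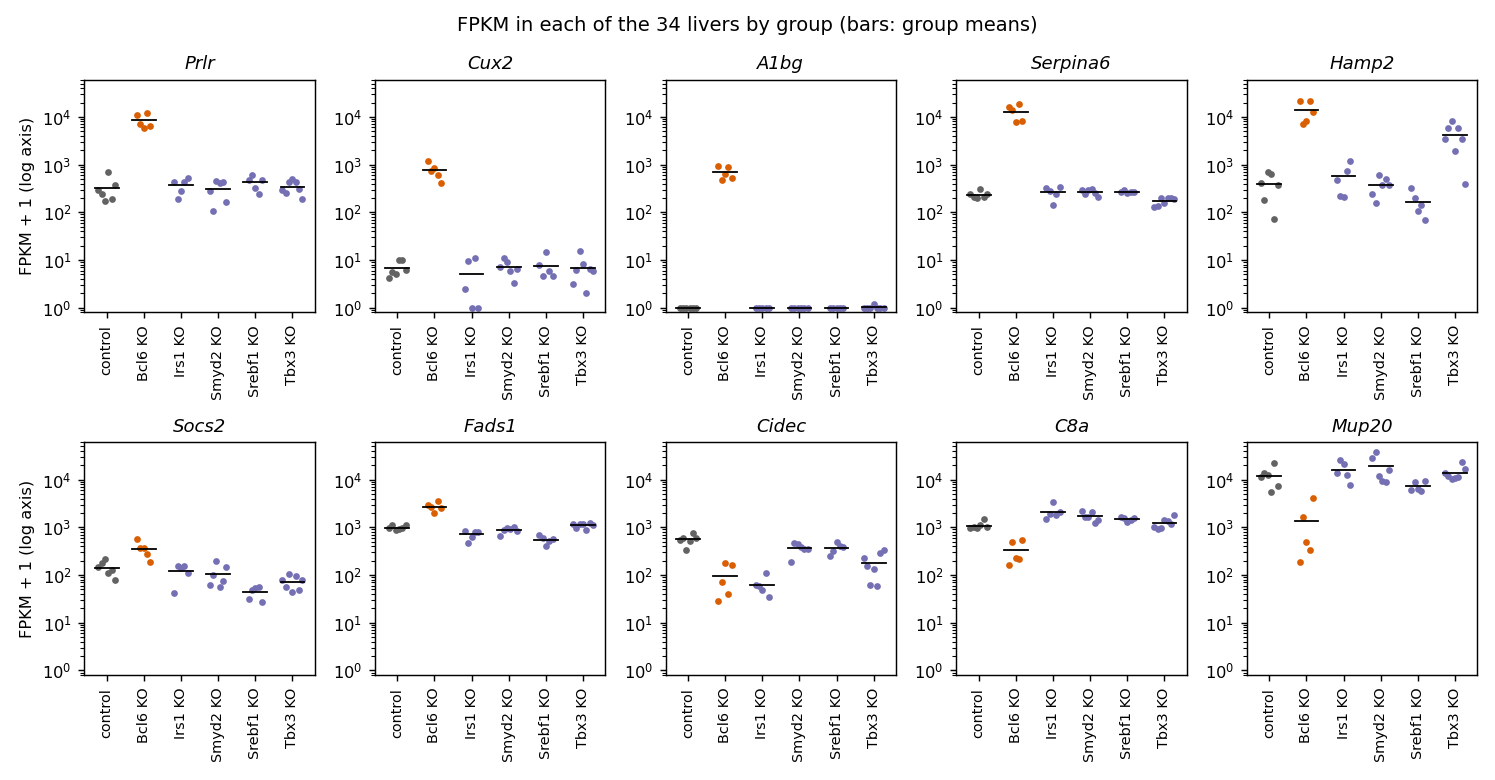
FPKM + 1 on a log axis for 10 genes in all 34 livers, in the order control, Bcl6 KO, Irs1 KO, Smyd2 KO, Srebf1 KO and Tbx3 KO, with bars at group means. Prlr, Cux2, A1bg and Serpina6 are high in the Bcl6 KO livers and low in all 29 other livers, Hamp2 is also high in most Tbx3 KO livers, and Cidec is also low in Irs1 KO livers.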

How the data were processed

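Total liver RNA was extracted with TRIzol and a column kit and made into libraries with a stranded total RNA kit, per the labels' protocols. The submitters' processing notes name featureCounts 1.6.4 and the builds mm10 and GRCh38, with no role; the strand setting is not given in the sources used here, so near-identical Cyp, Sult, Mup, Serpina1, Ces and Slc22a genes, overlapping genes and antisense genes may share reads. The authors deposited 1 table of FPKM per gene symbol. Judged by the number of digits printed, 14658 of 26656 symbols above 0 appeared to hold sums over transcripts. This mark fell on 5.25% of symbols with 1 RefSeq transcript and on 89.9% of those with 2 or more. Levels are therefore not ranked between genes, shares and sums of FPKM depend on these sums, and no test on counts was run. Column sums of FPKM were 2980000 to 3090000 in Bcl6 KO and 2790000 to 2990000 in controls.

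Values were tested as log2(FPKM + 1) with limma 3.58.1 in R 4.3.3 with an intensity trend, in 1 fit of all 34 livers with the controls as 1 group and a Benjamini-Hochberg threshold of 0.05, on genes reaching 1 FPKM in 5 or more of the 11 livers. Log2 changes understate those of low genes. The ± after a log2 change is its standard error, and after a mean FPKM the SD over 5 Bcl6 KO or 6 control livers. Named genes were Bcl6 and sex chromosome genes, the 10 highest and 10 lowest changes among called genes without overlap, the 6 largest rises and falls in mean FPKM, up to 5 called members of each list in each direction by adjusted p, up to 2 abundant members of lists without calls, and any member of the BCL6 and growth hormone lists. Chosen after their values were seen were Dnah11, Cacna1h, Nptx1, Dnajc12, Upp2, C6, Col1a1, Col3a1, Cyp2b9, Cyp3a11, Cyp7a1, Fasn, Hamp, Mup3, Ppara, Cd36, Abcd2, Hc, Saa1, Saa2, Scd1, Sult1e1, Sult2a8 and the Cyp4a and Pdk4 genes. Members and lists were chosen with earlier results of these data known, so no list is independent evidence. Alternatives were the pseudocount (0.1), the filter, median and quantile scaling, the 2 groups alone, sgGFP alone as control, no intensity trend, a replicate block and leaving out each liver. Gene positions are from GENCODE annotation of GRCm38, promoters from RefSeq on GRCm38.p6. The main fit did not pair livers by replicate number. Correlations of same-numbered deviations were -0.03 to 0.10. Pairs with different numbers were not computed, so these values cannot settle whether same-numbered livers shared a batch. Figures were drawn with Python 3.11.15 and matplotlib 3.10.9.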

Additional observations from a re-analysis of the deposited data

Results flagged for a closer look

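Among 148 groups of 5 or 6 values examined, 9 held 1 liver that stood apart from the others of its group by more than Dixon's criterion. Chance flags about 1 in 20 of all groups examined, a share close to that seen here. For gene lists the values are mean log2(FPKM + 1) relative to the controls' mean. In Bcl6 KO 5, bile acid genes stood at 0.27 against -0.08 to 0.00052 in the other 4 Bcl6 KO livers, and other xenobiotic genes stood at 0.48 against -0.01 to 0.12. In the same liver Tinag was at 2.21 FPKM and listed at 0 in the other 4. In Bcl6 KO 3, cholesterol genes stood at -0.37 against 0.12 to 0.24, and interferon-stimulated genes at 0.47 against -0.14 to -0.00073. Endothelial markers in Bcl6 KO 4 stood at 0.14 against 0.35 to 0.41. Among the controls, sgGFP 3 stood apart for fatty acid oxidation genes, at -0.30 against -0.03 to 0.09, and for lipid droplet genes, at -0.45 against -0.02 to 0.20. Sex chromosome genes in sgGFP 1 stood at -0.19 against 0.0025 to 0.08.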

How the results depend on the processing

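Of the 1213 calls, the count stayed within 1.5 times under every alternative except leaving out Bcl6 KO 4, and ranged from 780 to 1244 over the 11 livers left out in turn. The higher count of 567 ranged from 436 to 565 and the lower count of 646 from 344 to 679. The lower count was 334 under median scaling and 377 in the fit of the 2 groups alone, and the cause was not tested. Against the other 4 knockout groups the count of 2236 ranged from 1576 to 2039. With the replicate number as a block (replicate block) 1229 genes passed, 572 higher and 657 lower. By over 1.5 times the block moved the lower counts of stellate markers (3 to 8), coagulation (0 to 1), cholesterol (0 to 1), cholangiocyte markers (1 to 2) and oxidative phosphorylation (1 to 0) and the higher count of ribosomal proteins (0 to 1). Every other list's counts stayed within 1.5 times under it. Of 158 named genes past the threshold, 107 held under all 20 alternatives. Over 3160 pairs of gene and alternative, 2856 stayed past the threshold in the same direction, 304 did not pass and 0 reversed. Of 960 list counts, 796 stayed within 1.5 times. Low FPKM limit what can be seen: differences in genes near 1 FPKM, and in members of near-identical families, rest on few or shared reads. For sgGFP against sgLacZ, with 2 genes past the threshold, no liver was left out.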
